A study of Mus musculus with 4 samples.

Results

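Transcript levels of the gene for the transcription factor p53 (Trp53) and of 9 genes that p53 is known to activate directly were examined in mouse embryonic stem cells (ESCs) with and without the kinase gene Pim3. The 9 target genes were Cdkn1a, Mdm2, Ccng1, Trp53inp1, Zmat3, Phlda3, Sesn1, Bbc3 and Bax. The 10 genes were listed by name for their textbook roles, with earlier results of these data known, and they are 10 of the 55418 rows of the gene count table. Messenger RNA of 4 cultures was sequenced, 2 wild type (WT) and 2 Pim3-/-. All 4 were E14 ESCs, an established line whose strain is labelled 12910la, grown on gelatin in serum medium with leukaemia inhibitory factor and given no further treatment. The Pim3-/- cultures had been made with CRISPR/Cas9. Per the study's methods they were 2 clones and the WT cultures were 2 biological samples, so each clone is represented by a single library, and a change of genotype and a change that arose in deriving a clone cannot be told apart. Which clone carries which replicate number was not given.

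p53 is a tetrameric transcription factor that is held at a low protein level by the ubiquitin ligase MDM2 and is stabilised when DNA damage or other stress interrupts that control. Stabilised p53 binds a response element made of a pair of decamers and activates genes for cell cycle arrest, apoptosis, metabolic restraint and its own feedback inhibition. In ESCs p53 protein is abundant, and it is known to favour differentiation and death after damage over a lasting arrest at the first checkpoint of the cell cycle. The level of the Trp53 transcript does not give the amount or the activity of the protein, and neither was measured in these data.

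The response element links these genes to p53, so its consensus was searched on both strands in the RefSeq promoter windows (GRCm38.p6, 250 bases before to 50 bases after each start). The consensus reads the same on both strands. Windows were held for 8 of the 10 genes and not for Trp53inp1 and Zmat3. The matches are shown as a description of these short windows and do not rank the genes by how near an element lies. Capitals mark the C and the G at the core of each decamer, which every match had to keep. Positions are counted from the start site of the window that held the match. Cdkn1a and Sesn1 had 2 windows each and Bbc3 had 3. The Sesn1 and Bbc3 matches lie downstream of the outermost annotated starts of these genes (41809935 and 16308393).
Cdkn1a: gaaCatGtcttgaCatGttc
Ccng1: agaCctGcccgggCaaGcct
Bbc3: ctgCaaGccccgaCttGtcc
Sesn1: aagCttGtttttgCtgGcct
Trp53: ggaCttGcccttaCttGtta
The Cdkn1a match (chr17:29090928-29090947, plus strand) lay at -51 to -32 with 1 base off the consensus, upstream of the first of 2 annotated start sites. The Ccng1 match (chr11:40755462-40755481, minus strand) lay at -195 to -176, also with 1 mismatch. With up to 2 mismatches, these were the 2 genes of 8 with a match, against 106 of 27025 genes (0.392%) and 0.326% of all windows. Bbc3 (chr7:16309486-16309505, plus strand, -97 to -78), Sesn1 (chr10:41887266-41887285, plus strand, -173 to -154) and Trp53 (chr11:69580284-69580303, plus strand, -75 to -56) came in only at 3 mismatches, a level that 1.63% of genes reached. No match in Mdm2, Phlda3 or Bax says only that the letters are not in these short windows. A match is a description of sequence and not a measured binding site.

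The libraries held 22029427 to 25668307 counts. Per-library values below are counts per 1000000 after TMM scaling (CPM), in which the size factors were 0.828 and 0.883 for the WT libraries and 1.17 for both Pim3-/- libraries. Of 18444 genes tested with edgeR's quasi-likelihood test, 3246 (17.6%) were called higher in Pim3-/- ESCs and 2987 (16.2%) lower at a Benjamini-Hochberg adjusted p under 0.05. The median log2 fold change over all tested genes was 0.07, and it was 0.52 when libraries were scaled by their totals instead. Pim3 counts per gene were 4392 and 4953 in WT and 4970 and 4804 in Pim3-/- libraries (log2 fold change -0.27, SE 0.17, adjusted p = 0.251 by the same test). Since small edits can leave a transcript in place, that count does not check the labels. All 12 ESC markers were detected (4 called lower and 1 higher), with summed levels of 10248 to 11295 CPM in WT and 7199 to 7388 CPM in Pim3-/- libraries. Primitive endoderm markers summed to 84.3 and 102 CPM in WT and to 428 and 360 CPM in Pim3-/- libraries, and 11 of 12 were called higher. Fibroblast markers summed to 29.3 and 30.3 CPM in WT and to 58.0 and 52.2 CPM in Pim3-/- libraries, with 2 of 5 tested called higher and Lum at 0 in all libraries. Trophoblast markers (4 of 10 tested called higher) lay at 178 and 179 CPM in WT and at 162 and 187 CPM in Pim3-/- libraries, and neuroectoderm markers (2 of 7 called higher and 1 lower) at 134 to 142 CPM and 86.3 to 109 CPM. The part of such cells in the values of the p53 genes was not tested, and in bulk RNA fewer cells of a type and less RNA per cell cannot be told apart.

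Of the 10 genes, Trp53 and Bax were called lower in Pim3-/- ESCs and 0 were called higher. The other 8 did not pass the test, with log2 fold changes between -0.43 for Ccng1 and 0.44 for Sesn1. Over all genes the corresponding shares were 16.2% lower and 17.6% higher, so 2 lower calls among 10 is near the background. At an unadjusted p under 0.05 the same edgeR test gave 3 lower (Ccng1 being the third) and 0 higher, and DESeq2 called 2 lower and 0 higher. The median log2 fold change of the 10 genes was -0.31, which was 0.37 below that of all tested genes, and with library totals it was 0.15, again 0.37 below all genes. Genes of like level (within 1 log2 unit of a gene's mean log2 CPM) had lower medians than all genes, from -0.58 at the level of Trp53 to -0.05 at that of Sesn1 with a middle value of -0.30, which is next to the median of the 10, and on average 33.3% of them were called lower and 9.11% higher. Without 1 WT library, 0 of the 10 were called in either direction, where the spread was that of the clones alone. Without Pim3-/- replicate 1, 7 were called lower, and without Pim3-/- replicate 2, 3 lower and 3 higher, where the spread was that of the close WT pair alone. Both WT libraries lay below both Pim3-/- libraries for 2 of the 10 (Cdkn1a and Sesn1), a pattern that 38.3% of all tested genes showed, and above them for 4 (Ccng1, Trp53inp1, Bax and Trp53), which 34.2% showed. With 2 libraries against 2, an exact permutation test of a single gene cannot give a two-sided p below 0.333, so the p-values below are those of the fit over all genes. They set each fold change against the spread between these cultures, which the fit estimates in part from other genes. All 10 genes had at least 408 counts in every library. The WT pairs of Bbc3, Cdkn1a and Trp53 lay so close that counting error alone can be as large as their difference.

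**Figure D1:**
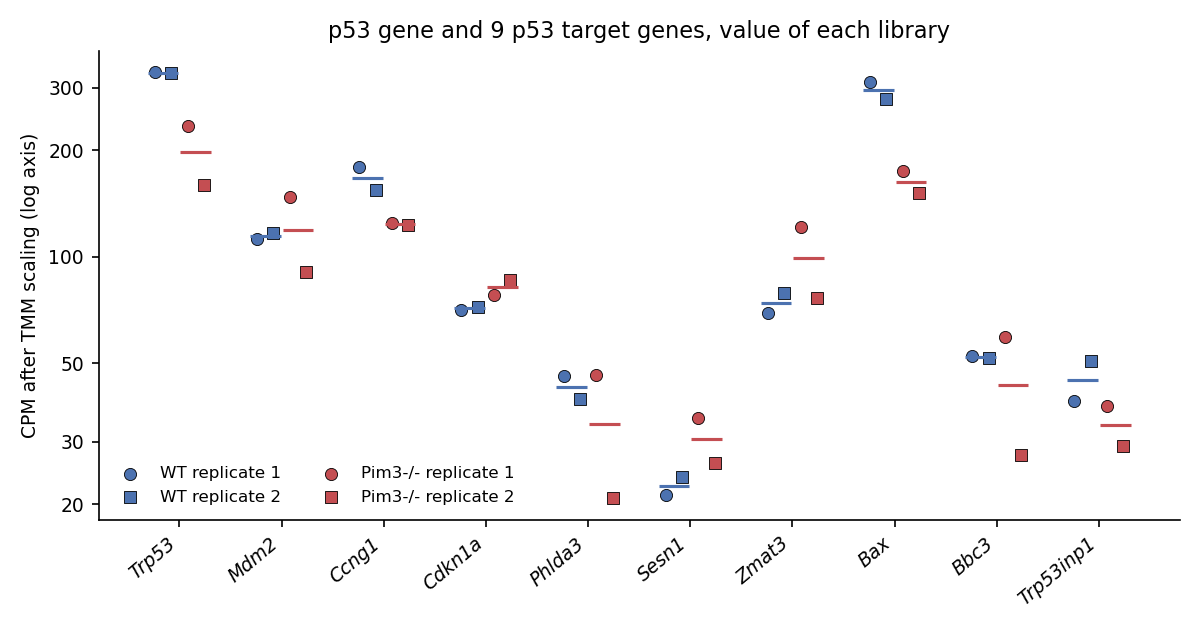
CPM after TMM scaling (log axis) of Trp53 and its 9 targets in each of the 4 libraries, with a bar at the mean of each group. Bax and Trp53 in the Pim3-/- libraries lie at 151 to 235 CPM, below the WT libraries at 280 to 332 CPM, while for Phlda3 and Bbc3 the 2 Pim3-/- libraries lie on either side of WT or level with it.

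The Trp53 transcript fell to 59.6% of its WT level. Trp53 (chromosome 11, 69580359 to 69591873, plus strand, GRCm38) was at 332 and 329 CPM in the WT libraries and at 235 and 159.9 CPM in Pim3-/- replicates 1 and 2. The WT pair was nearly equal, and both Pim3-/- values lay below it, with a wide gap between the clones. The log2 fold change was -0.75 (SE 0.22, 95% interval -1.27 to -0.23, Benjamini-Hochberg adjusted p = 0.0377, edgeR's quasi-likelihood test). Highly expressed genes leaned the same way: among 1092 tested genes within 1 log2 unit of the mean level of Trp53, the median log2 fold change was -0.58, 46.6% were called lower, and 39% had a log2 fold change as low as that of Trp53 or lower. The call was lost with library totals (-0.29, adjusted p = 0.310), with a filter of 10 counts in every library (-0.67, adjusted p = 0.0569), and without WT replicate 1 (-0.80, adjusted p = 0.193) or WT replicate 2 (-0.84, adjusted p = 0.151), all by the same edgeR quasi-likelihood test. The processed pseudogene Trp53-ps, whose sequence resembles Trp53, had 0 counts in all 4 libraries.

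The feedback arm of the pathway had no gene that passed the test. Mdm2, which encodes the ubiquitin ligase that p53 induces and that degrades it, was at 112 and 117 CPM in WT and at 147 and 90.4 CPM in Pim3-/- replicates 1 and 2 (chromosome 10, 117688875 to 117710758, minus strand). One Pim3-/- library lay above the WT pair and the other below it, and the mean log2 fold change was 0.05 (SE 0.24, 95% interval -0.51 to 0.62, adjusted p = 0.877 by edgeR's quasi-likelihood test). Set against both WT libraries singly, Mdm2 was 0.35 higher in Pim3-/- replicate 1 and 0.36 lower in replicate 2 on the log2 scale, so its direction depended on which clone was taken.
Ccng1 encodes cyclin G1, which brings a phosphatase to MDM2 and thereby aids it. Its values were 179 and 155 CPM in WT and 125 and 123 CPM in Pim3-/- libraries (chromosome 11, 40748552 to 40755311, minus strand). The groups did not overlap and the Pim3-/- pair was almost equal, at 124 ± 1.44 CPM (SD, n = 2). The log2 fold change of -0.43 (SE 0.17, 95% interval -0.83 to -0.03) had an adjusted p of 0.0869 by edgeR's quasi-likelihood test, and with library totals it was 0.02.

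The arrest gene Cdkn1a differed little between the groups. It encodes p21, an inhibitor of cyclin-dependent kinases and the best known p53 target (chromosome 17, 29090976 to 29100727, plus strand). Cdkn1a was at 70.9 and 72.2 CPM in WT and at 78.0 and 86.0 CPM in Pim3-/- libraries, so both clones lay above both WT cultures. The log2 fold change was 0.20 (SE 0.16, 95% interval -0.18 to 0.57, adjusted p = 0.365 by edgeR's quasi-likelihood test), an interval narrower than 1 log2 unit on either side of 0 under this scaling. Library totals gave 0.65 (adjusted p = 0.0202, same test), a call that the TMM scaling did not make. Of its exonic bases, 7.68% overlap the antisense gene AC167363.2, which had 91 to 259 counts, and whether counting used strand is not given in the sources used here.

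Of the 3 targets that act on growth signals or on RNA, none passed the test under TMM scaling, and their log2 fold changes differed in sign. Phlda3 encodes a pleckstrin homology protein that competes with the kinase AKT for membrane lipids (chromosome 1, 135766119 to 135769136, plus strand). It was at 46.2 and 39.7 CPM in WT and at 46.5 and 20.8 CPM in Pim3-/- replicates 1 and 2, so replicate 1 lay level with WT and replicate 2 far below. This gave a log2 fold change of -0.35 (SE 0.34, 95% interval -1.13 to 0.43, adjusted p = 0.441 by edgeR's quasi-likelihood test).
Sesn1 encodes sestrin 1, a leucine-linked inhibitor of mTORC1 signalling that also acts through the energy sensor AMPK (chromosome 10, 41809935 to 41908424, plus strand). Its values were 21.3 and 23.8 CPM in WT and 35.0 and 26.2 CPM in Pim3-/- libraries. Both clones lay above both WT cultures, with the gap to replicate 2 as narrow as the gap within WT, and the log2 fold change was 0.44 (SE 0.20, 95% interval -0.03 to 0.91, adjusted p = 0.124 by edgeR's quasi-likelihood test).
Zmat3 encodes a zinc finger protein that binds RNA and shapes splicing and transcript stability (chromosome 3, 32334792 to 32366014, minus strand). It was at 69.5 and 79.0 CPM in WT and at 122 and 76.5 CPM in Pim3-/- replicates 1 and 2, with replicate 2 inside the WT range. Its log2 fold change was 0.42 (SE 0.24, 95% interval -0.14 to 0.97, adjusted p = 0.206 by edgeR's quasi-likelihood test). With library totals both were called higher by that test, Sesn1 at 0.89 (adjusted p = 0.0132) and Zmat3 at 0.86 (adjusted p = 0.0231).

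Among the genes of apoptosis and stress, Bax fell to 55.2% of its WT level, the largest change of the 10 genes under TMM scaling with all 4 libraries. With library totals Sesn1, Zmat3, Cdkn1a and Mdm2 moved further than Bax, and without Pim3-/- replicate 1 Trp53 and Phlda3 did. Bax encodes the pore-forming protein that opens the outer mitochondrial membrane (chromosome 7, 45461697 to 45466898, minus strand). It was at 310 and 280 CPM in WT and at 175 and 151 CPM in Pim3-/- libraries, and the gap between the groups was wider than the gap within either. The log2 fold change was -0.86 (SE 0.18, 95% interval -1.28 to -0.43, Benjamini-Hochberg adjusted p = 0.0132, edgeR's quasi-likelihood test). Among 1333 tested genes of like level the median was -0.52, 44% were called lower, and 29.5% had a fold change as low or lower. The call was lost with library totals (-0.40, adjusted p = 0.109), without WT replicate 1 (-0.83, adjusted p = 0.151) and without WT replicate 2 (-1.02, adjusted p = 0.0754) in the same edgeR test. The Bax row also shares 192 exonic bases (12.2% of its exons) with Gm45808 on the same strand, which had 2489 to 4007 counts, so reads there could be split between the rows.
Bbc3 encodes PUMA, a BH3-only protein that frees BAX from its inhibitors (chromosome 7, 16308393 to 16318205, plus strand). Its values were 52.5 and 51.7 CPM in WT and 59.3 and 27.5 CPM in Pim3-/- replicates 1 and 2. The WT pair differed by less than 1 CPM, and the clones lay on opposite sides of it, for a log2 fold change of -0.26 (SE 0.32, 95% interval -1.01 to 0.48, adjusted p = 0.549 by edgeR's quasi-likelihood test). Trp53inp1 encodes a stress protein that works with p53 in the nucleus and with autophagosomes in the cytoplasm (chromosome 4, 11156431 to 11174379, plus strand). It was at 39.2 and 50.7 CPM in WT and at 37.8 and 29.1 CPM in Pim3-/- libraries, with the lower WT value close to the higher Pim3-/- value. The log2 fold change was -0.42 (SE 0.21, 95% interval -0.90 to 0.05, adjusted p = 0.144 by the same edgeR test), and it was 0.02 with library totals.

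**Figure D2:**
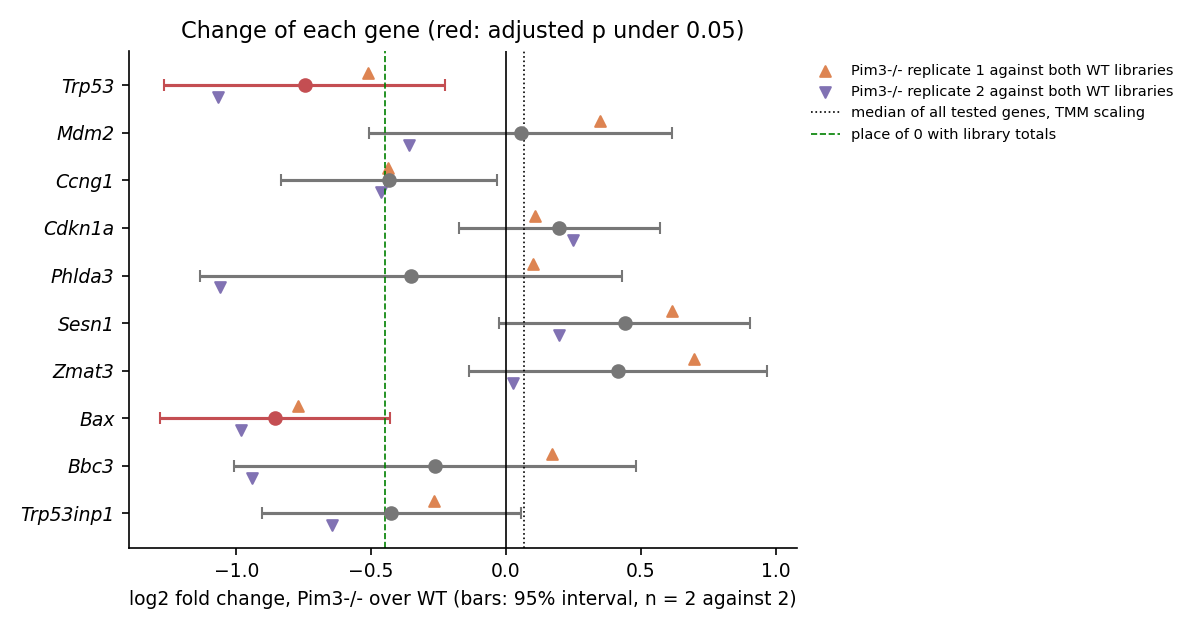
Log2 fold change of Pim3-/- against WT for each of the 10 genes under TMM scaling, with the 95% interval. Triangles give Pim3-/- replicate 1 (pointing up) and replicate 2 (pointing down), each alone against both WT libraries. A dotted line marks the median of all tested genes, and a dashed line marks where 0 would lie with library totals. Under TMM scaling only the intervals of Bax, Trp53 and Ccng1 exclude 0, of which Bax (-0.86) and Trp53 (-0.75) pass after adjustment over all genes.

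Per kilobase of exon, the 10 transcripts spanned a wide range of levels, and their order was led by Bax and Trp53 in both groups. In WT ESCs Bax was at 187 CPM per kb, Trp53 at 81.8 and Ccng1 at 47.5. Phlda3 (27.5), Bbc3 (24.5), Mdm2 (22.5) and Cdkn1a (20.1 CPM per kb) came next, and Trp53inp1 (6.94), Zmat3 (6.49) and Sesn1 (5.67 CPM per kb) came last, with Trp53inp1 and Zmat3 overlapping each other. In Pim3-/- ESCs Bax (103 CPM per kb), Trp53 (48.8) and Ccng1 (35.2) again led. The genes from Mdm2 (23.4) through Cdkn1a (23.1) and Phlda3 (21.6) to Bbc3 (20.4 CPM per kb) overlapped their neighbours, and so did Zmat3 (8.66) and Sesn1 (7.69), above Trp53inp1 at 5.17 CPM per kb. The exon lengths were those of merged GENCODE exons. With the length of the longest transcript instead, 4 of the 10 kept their place in WT and 6 in Pim3-/- ESCs.

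For 9 of the 10 genes the 2 Pim3-/- clones differed more than the 2 WT cultures did, as 67.2% of all tested genes did. Pim3-/- replicate 1 was above replicate 2 for 9 of the 10 genes (90%), where 52.9% of all tested genes were, and Cdkn1a was the exception at a ratio of 0.906. The median log2 ratio of replicate 1 to replicate 2 was 0.48, against 0.04 over all tested genes, and the median log2 ratio of WT replicate 2 to WT replicate 1 was 0.01. These ratios were taken on log2 CPM with a prior count of 2. Phlda3 was 2.23-fold and Bbc3 2.16-fold higher in replicate 1 than in replicate 2, and among genes of like level 1.90% and 2.04% differed between the clones by as much in either direction. Mdm2 (1.63-fold), Zmat3 (1.59-fold), Trp53 (1.47-fold), Sesn1 (1.34-fold), Trp53inp1 (1.30-fold) and Bax (1.16-fold) were also higher in replicate 1, and Ccng1 (1.02-fold) was level. Ccng1 was the gene whose WT cultures differed more than the clones (log2 ratios of -0.21 and 0.02), and for Trp53inp1 the gaps were alike (0.37 in each group). For Trp53, 22.1% of genes of like level differed as much between the clones. That share was 9.28% for Mdm2, 10.6% for Zmat3, 30.8% for Sesn1 and 34.2% for Trp53inp1. It was 66.2% for Bax, 72% for Cdkn1a and 95.8% for Ccng1. These ratios compare 1 library with 1 library, and the difference between the clones was not tested.

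Taken singly against both WT libraries under TMM scaling, the clones gave different pictures of the pathway. In replicate 1, Bbc3 was 0.17 and Phlda3 0.10 above WT on the log2 scale, Zmat3 0.69 and Sesn1 0.62 above, and Trp53 0.51 and Bax 0.77 below. In replicate 2, Bbc3 was 0.94 and Phlda3 1.06 below WT, Trp53 1.07 and Bax 0.98 below, and Zmat3 was 0.02 above. Ccng1 was alike in both, 0.44 and 0.46 below WT. Only Bax, Trp53, Ccng1 and Trp53inp1 were below WT in both clones, while Cdkn1a and Sesn1 were above it in both. Zmat3 was also above WT in both by log2 fold change, but in replicate 2 its CPM lay inside the WT range. Phlda3, Bbc3 and Mdm2 took opposite signs.

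The 40 further genes known as direct p53 targets showed no common direction between the groups but the same tilt between the clones. Of the 40, 5 (12.5%) were called higher in Pim3-/- ESCs and 3 (7.5%) lower, both below the shares over all genes of 17.6% and 16.2%, and their median log2 fold change was 0.14. Genes of like level were called higher in 14.5% and lower in 21.9% of cases, on average over the 40. Pmaip1, which encodes the BH3-only protein NOXA, rose from 15.5 and 15.2 CPM to 66.2 and 58.8 CPM (log2 fold change 2.03, SE 0.17, adjusted p = 0.00220 by edgeR's quasi-likelihood test). Its value passed that test under all alternatives tried. Epha2, an ephrin receptor (1.51, SE 0.18), and Trp53i11 (0.72, SE 0.17) also rose. Rps27l, a ribosomal protein paralogue that p53 induces, fell from 805 and 637 CPM to 348 and 224 CPM (-1.34, SE 0.26, adjusted p = 0.0104 by the same edgeR test), and Ak1, an adenylate kinase (-0.90, SE 0.20), and Psrc1, a spindle protein (-0.74, SE 0.21), fell too. With library totals the edgeR calls of Ak1 (-0.45, adjusted p = 0.103) and Psrc1 (-0.29, adjusted p = 0.289) were lost. Without WT replicate 1 the calls of Rps27l, Ak1, Psrc1 and Trp53i11 were lost, and without WT replicate 2 those of Ak1, Psrc1 and Trp53i11. Replicate 1 was above replicate 2 for 33 of the 40 (82.5%), with a median log2 ratio of 0.36. The widest gaps, chosen after their values were seen, were those of Zfp365 (2.98-fold), Btg2 (2.94-fold), Plk2 (2.60-fold), Pidd1 (2.58-fold) and Sesn2 (2.51-fold). The tilt was not particular to direct targets. Of the lists described below, replicate 1 was also above replicate 2 for 16 of 22 cell cycle genes (72.7%, median log2 ratio 0.30). It was above for 10 of 13 BCL-2 family genes (76.9%, median 0.17), 14 of 25 regulators (56%) and 5 of 15 paralogues (33.3%).

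**Figure D3:**
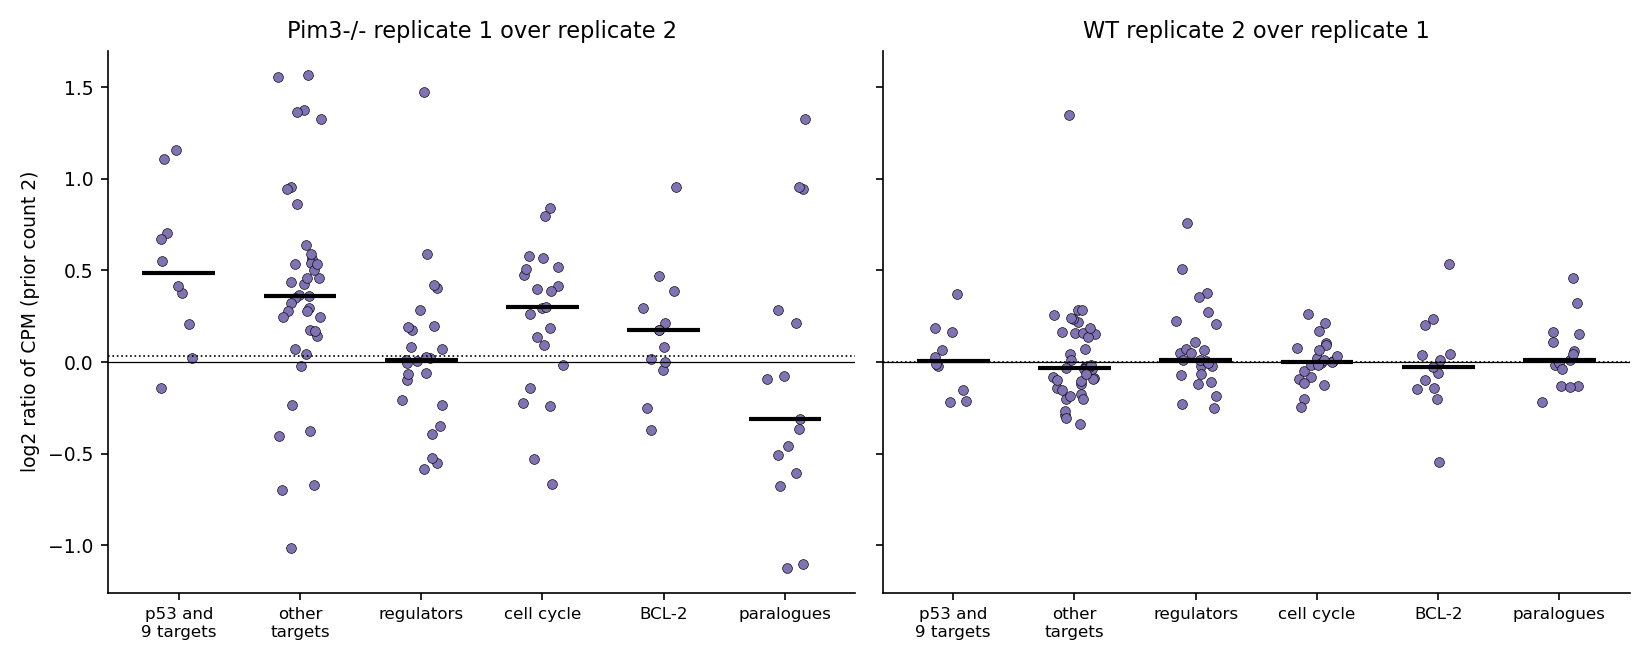
Log2 ratio of CPM (with a prior count of 2) of Pim3-/- replicate 1 over replicate 2, left, and of WT replicate 2 over replicate 1, right, for each tested gene of 6 lists, with bars at list medians and a dotted line at the median of all tested genes. Trp53 with its 9 targets (median 0.48) and the other p53 targets (0.36) lie above 0 between the Pim3-/- replicates and around 0 (0.01 and -0.03) between the WT replicates. Between the Pim3-/- replicates the medians of the cell cycle genes (0.30) and the BCL-2 family (0.17) also lie above 0, with the regulators at 0.01 and the paralogues at -0.31.

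The enzymes and partners that act on the p53 protein were split between the directions. Of 25 regulators tested, 4 (16%) were called higher and 5 (20%) lower, near the 17.6% and 16.2% of all genes, with a median log2 fold change of -0.16. On average over the 25, 12.4% of genes of like level were called higher and 26.3% lower. With library totals 9 were called higher and 2 lower. The acetyltransferases Crebbp (log2 fold change 1.09) and Ep300 (1.04), which modify p53 and other proteins, rose, as did the methyltransferase Setd7 (1.15) and the deacetylase Sirt1 (0.70). The mitotic kinase Aurka (-1.30) and the checkpoint kinase Chek1 (-1.27) fell, with Chek1 passing from 59.8 and 63.0 CPM to 26.2 and 24.7 CPM. Cdkn2a, whose locus encodes the MDM2 inhibitor ARF, fell (-1.04). Its counts cover all transcripts of the locus, so the ARF transcript was not measured alone. Usp7 (-0.84), a deubiquitinase of both MDM2 and p53, fell too. The adjusted p-values of these named regulators ran from 0.00395 for Chek1 to 0.0472 for Sirt1 by edgeR's quasi-likelihood test. With library totals the calls of Usp7 (-0.39, adjusted p = 0.117) and Cdkn2a (-0.59, adjusted p = 0.0553) were lost in that edgeR test, and DESeq2 did not call Sirt1 (adjusted p = 0.0560). With either WT library left out, the calls of Setd7, Crebbp, Sirt1, Cdkn2a and Usp7 were lost, and that of Ep300 without WT replicate 1, while Chek1 and Aurka passed throughout. Replicate 1 was above replicate 2 for 14 of the 25 (56%), close to the 52.9% of all genes.

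Cell cycle genes that p53 is known to repress by way of p21 and the DREAM complex were called lower more often than higher in Pim3-/- ESCs. Of 22 tested, 10 (45.5%) were called lower and 2 (9.09%) higher, beside 16.2% and 17.6% of all genes, with a median log2 fold change of -0.56. Among genes of like level the shares were closer to these, at 39.4% lower and 6.54% higher on average over the 22, and the middle of their medians was -0.47. With library totals the counts were 2 lower and 5 higher and the median was -0.11. The lower calls numbered 1 without WT replicate 1, 3 without WT replicate 2, and 15 and 13 without Pim3-/- replicates 1 and 2, while the median stayed 0.53 to 0.85 below that of all genes. Ccnb1, the mitotic cyclin B1, fell from 592 and 559 CPM to 262 and 199 CPM (-1.32, adjusted p = 0.00597 by edgeR's quasi-likelihood test), and its partner kinase Cdk1 (-1.19), the anaphase activator Cdc20 (-1.07) and the survivin gene Birc5 (-1.03) fell with it. With library totals the calls of Cdc20 (-0.61, adjusted p = 0.0512) and Birc5 (-0.58, adjusted p = 0.0623) were lost in the same edgeR test. The transcription factor genes E2f1 (1.03, adjusted p = 0.00828) and Foxm1 (0.74, adjusted p = 0.0146, both by the same edgeR test) rose. Without WT replicate 1 the edgeR calls of Cdk1, Cdc20, Birc5, E2f1 and Foxm1 were lost (adjusted p = 0.0787 to 0.275), and without WT replicate 2 those of Cdc20, E2f1 and Foxm1, while Ccnb1 passed throughout. Cdkn1a itself did not pass the test, as given above.

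The other BCL-2 family genes, which act beside Bax and Bbc3, moved in both directions. Of 17 genes, 13 were tested, 3 (23.1%) were called higher and 2 (15.4%) lower, beside 17.6% and 16.2% of all genes, and the median log2 fold change was 0.38. The shares for genes of like level were 15.4% higher and 20.3% lower on average over the 13. The survival gene Mcl1 rose from 244 and 250.0 CPM to 472 and 561 CPM (1.06, adjusted p = 0.00817 by edgeR's quasi-likelihood test), and the BH3-only genes Pmaip1 (2.03), whose product binds MCL1, and Bmf (0.77) rose. Bad, whose BH3-only product PIM kinases are known to phosphorylate, fell from 22.9 and 20.7 CPM to 9.07 and 7.37 CPM (-1.40, adjusted p = 0.00553 by the same edgeR test). Bak1, the pore-forming relative of Bax, fell by 0.52 on the log2 scale (adjusted p = 0.0452, edgeR's quasi-likelihood test), from 98.4 and 99.1 CPM to 73.7 and 63.7 CPM. The Bak1 call was lost under 5 of 10 alternatives, and with library totals its log2 fold change was -0.07 (adjusted p = 0.767, same edgeR test). Without WT replicate 1 the calls of Bad, Mcl1, Bmf and Bak1 were lost, and without WT replicate 2 those of Mcl1, Bmf and Bak1.

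Relatives of the 10 genes within their gene families moved in both directions. Of 17 paralogues, 15 were tested, 3 (20%) were called higher and 3 (20%) lower, near the 17.6% and 16.2% of all genes, and the median log2 fold change was 0.30. At like levels the shares were 14.6% higher and 21.9% lower on average over the 15. With library totals 7 were called higher and 1 lower. Ccng2, the relative of Ccng1, rose by 1.68, and Trp53inp2, the relative of Trp53inp1, rose by 1.02, where the p53 targets themselves had values of -0.43 and -0.42. Trp73, the p53 relative, rose by 1.29 (adjusted p = 0.0203 by edgeR's quasi-likelihood test), and Trp63 had too few counts to be tested. Zmat2 (-1.36) and Zmat5 (-0.96) fell while Zmat3 did not pass the test. The Zmat5 call was lost with library totals (-0.51, adjusted p = 0.207 by edgeR's quasi-likelihood test), and with either WT library left out those of Zmat5, Trp53inp2 and Trp73 were lost, while Ccng2 and Zmat2 passed throughout. Cdkn1b (0.53, SE 0.33) and Cdkn1c (0.54, SE 0.24), the relatives of Cdkn1a, and Mdm4 (0.30, SE 0.18), the relative of Mdm2, did not pass. Replicate 1 was above replicate 2 for 5 of the 15 paralogues (33.3%). Sesn2, Mdm4, Bak1, Bok, Pmaip1, Ppm1d and Rchy1 stand in more than 1 of these lists.

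**Figure D4:**
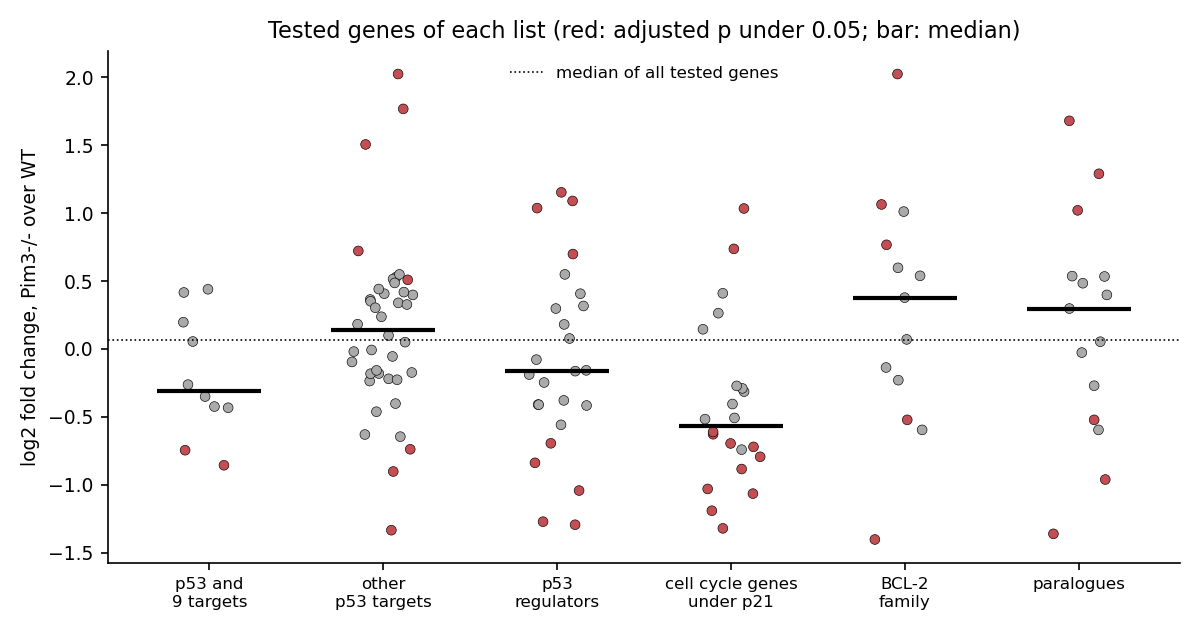
Log2 fold change of Pim3-/- against WT for each tested gene of the 6 lists, with a bar at each list's median. The cell cycle genes have the lowest median (-0.56) and the BCL-2 family the highest (0.38), and Trp53 with its 9 targets lies at -0.31, beside 0.07 over all tested genes.

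The genes nearest to Trp53 in their pattern over the 4 libraries, among 1091 others of like level, were Metap2, Snrpa and Sec23b, at root mean square differences of 0.0239, 0.0427 and 0.0449 in centred log2 CPM. For Cdkn1a they were Dpf2 (0.0162), Zmym3 (0.0200) and Stat3 (0.0236), among 3658. None of the 6 is in the lists above. With 4 libraries many genes share any given pattern, and these distances are a description only.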

How the data were processed

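The submitters deposited raw counts per gene symbol for 4 libraries. For these counts the authors' methods name Cutadapt, Hisat2, the mm10 assembly and Ensembl genes, whereas the submitters' processing notes name Trim Galore, STAR, featureCounts and GRCm38, so the pipeline behind the deposited counts is uncertain. Tool versions, the strand setting and the handling of reads with several locations are not given in the sources used here. A table of transposable element counts was not used. Libraries were grouped by the genotype in the labels.

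Of 55418 gene rows, 31418 had a count and 18444 passed filterByExpr (minimum count 10, minimum total 15) and were tested with edgeR 4.0.16 (limma 3.58.1, R 4.3.3). TMM factors, a quasi-likelihood fit of genotype alone and Benjamini-Hochberg adjustment over all tested genes were used, with calls at an adjusted p under 0.05. The SE was derived from the fold change and its F statistic, and 95% intervals from the same t scale. A count of 3, taken as the floor, corresponds to 0.112 to 0.157 CPM. Counting-based precision covers counting error only. DESeq2 1.42.0 was an alternative. Genes of like level were those within 1 log2 unit in mean log2 CPM (prior count 2). Gene positions and exon lengths came from GENCODE M21 on GRCm38, and promoter sequences from RefSeq on GRCm38.p6. A response element match kept both core C and G pairs and allowed up to 2 other mismatches. No genome sequence was used here, so the search covered promoter windows only. The scripts were tested on simulated counts with the same relative spread for every gene, few changed genes and no difference between clones. That setting differs from these data, so it checks the code and not the calls made here. Figures were drawn with Python 3.11.15 and matplotlib 3.10.9.

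The 10 genes and the other lists were chosen with earlier results of these data known. From each further list, at most 4 genes that rose and 4 that fell were named, being the called genes of largest fold change whose higher group had 10 or more counts in each library; paralogues could all be named. A gene that met this rule is not reported here. For Trp53 and Cdkn1a the 3 genes of nearest centred pattern were named. Alternatives were other size factors, other filters, DESeq2, a block on replicate number, each library left out, other exon lengths and other mismatch limits.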

Additional observations from a re-analysis of the deposited data

How the results depend on the processing

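Of 100 log2 fold changes (the 10 genes under 10 alternatives), 91 kept their direction and 73 also kept their side of the threshold, while 7 lost and 11 gained a call. The other 9 changed sign. With library totals, 32 of the 118 tested genes of the 6 lists changed sign, and 25 did when a library was left out. Among the 10 genes, Pim3 and the paralogues, library totals changed the sign of Ccng1 (0.022), Trp53inp1 (0.021), Phlda3 (0.10), Bbc3 (0.19), Pim3 (0.19), Zmat4 (0.43) and Phlda2 (0.18). Btg2 (0.36) and Plk2 (0.23) changed sign too. The calls, higher and lower, were then 6606 and 1092 over all genes, 3 and 0 of the 10 genes, 12 and 1 of the other targets, 9 and 2 of the regulators, 5 and 2 of the cell cycle genes, 6 and 1 of the BCL-2 family, and 7 and 1 of the paralogues. A filter of 10 counts in every library left 1 lower call each among the 10 genes, the BCL-2 family and the paralogues, and turned Zmat4 to 0.054. With no filter 1 BCL-2 gene was lower, and the medians less that of all genes were -0.61 for the 10 genes, -0.47 for regulators and -0.87 for cell cycle genes, where more low genes entered the reference median.

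Leaving out 1 library at a time gave 402 to 5393 higher and 373 to 5255 lower calls over all genes. The ranges of higher and lower calls were 0 to 3 and 0 to 7 for the 10 genes, 2 to 17 and 0 to 14 for other targets, 0 to 6 and 2 to 9 for regulators, 0 to 4 and 1 to 15 for cell cycle genes, 1 to 5 and 0 to 4 for the BCL-2 family, and 1 to 7 and 1 to 5 for paralogues. Medians less that of all genes ranged from -0.62 to 0.054, from -0.14 to 0.24, from -0.39 to -0.15, from -0.85 to -0.53, from 0.19 to 0.35 and from -0.18 to 0.25 in the same order. In such a fit the lone library of a group is assumed to vary like the pair of the other group, and the WT pair was the closer one. Among the same genes, log2 fold changes that took both signs ranged from -1.06 to 0.10 for Phlda3, -0.94 to 0.17 for Bbc3, -0.36 to 0.35 for Mdm2, -0.43 to 0.90 for Sesn2, -0.14 to 0.96 for Cdkn1b, -0.73 to 0.42 for Zmat4 and -0.13 to 0.18 for Sesn3, with the extremes at the fits without a Pim3-/- library. The same held for Btg2 (-1.09 to 0.47), Plk2 (-1.09 to 0.29), Zfp365 (-0.53 to 1.05) and Pidd1 (-0.42 to 0.95). The causes were not tested.

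The labels do not say whether replicate numbers pair the cultures. Within-group differences correlated at 0.0196, which cannot settle this with a single difference per group. A replicate block gave 3403 higher and 3272 lower calls, with 5 other targets lower instead of 3, and changed no other count by over 1.5 times. DESeq2's size factors and its Wald test changed no count of these lists by over 1.5 times. With the longest transcript as length, 4 and 6 of the 10 kept their place in WT and Pim3-/- ESCs, and up to 3 mismatches gave 5 genes with a response element match, against 2 with up to 1. A search within 2 kb of the starts was not run, as no genome sequence was used here. The 10 genes had 408 or more counts per library.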
